A study of Homo sapiens with 15 samples.

Results

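Fluids from the ascending-colon vessel of a colon simulator were compared with fluids from the 3 vessels downstream of it, through the transcripts they left in Caco-2 cells. The members are the 3 arrays of cells given vessel 1 fluid, out of 15 arrays in all, and they were chosen by the vessel number in the labels. They were set against the 9 arrays of vessels 2, 3 and 4, which the labels name as transverse colon, descending colon, and sigmoid colon with rectum. Each vessel was sampled after a 48 h simulation fed 0%, 1% or 2% polydextrose, a poorly digested glucose polymer used as a fibre, so each concentration gave 1 array for vessel 1 and 3 arrays for the later vessels. Bacteria were spun out, and the remaining fluid was added at 10% by volume to serum-free DMEM on non-differentiated Caco-2 cells, a human colon carcinoma line, for 24 h. The 0% fluids are themselves fermentation fluids, so all 12 arrays share exposure to microbial metabolites. The other 3 arrays, 1 each, held cells in medium only, in 100 mM NaCl and in 5 mM butyrate.

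In the colon, bacteria meet fresh carbohydrate first in the ascending part, and fermentation of it releases acetate, propionate and butyrate. Butyrate feeds colon epithelium and inhibits histone deacetylases. In colon carcinoma cells it is known to slow the cell cycle, to raise cyclin-dependent kinase inhibitors and to bring on genes that are otherwise kept silent. The composition of the 12 fluids was not analysed here.

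All values are the deposited GCRMA log2 signals of 1 probe set per gene, the one with the highest mean, and a log2 difference of 1 is a 2-fold difference. Of 19775 genes on the array, 8737 had a log2 signal of at least 5 in at least 4 of the 12 arrays and were tested with limma, with concentration as a factor. A difference is vessel 1 minus later vessels, and it passed at an adjusted p under 0.05 over all 8737 genes. The labels list 1 simulation per concentration and 1 array per fluid, so every p-value measures the spread among these arrays, which may be technical, and their number limits the precision. Between 43.0% and 44.1% of genes reached the log2 limit on the 12 arrays. The ACTB probe sets near the 3' end exceeded those near the 5' end by 0.73, 0.92 and 0.62 log2 units in vessel 1 at 0%, 1% and 2%, against 0.37 to 0.64 in the later vessels, and this gap was larger in vessel 1 within concentrations (exact permutation test, two-sided, 64 arrangements, p = 0.0156, the smallest it can give). The same gap for GAPDH differed by 0.04 (exact permutation p = 0.125). The part of this gap in the results was not tested, and counts from a fit that holds it as a covariate are given beside the main ones where they move by over 1.5 times. Of 12 colon epithelium markers 7 were expressed highly enough to be tested, among them EPCAM at 13.3 to 13.5 log2 units in vessel 1 and 13.2 to 13.4 in the later vessels. None of the leukocyte markers was tested, and of 9 fibroblast markers only COL1A1 was. COL1A1 had 6.64, 5.26 and 6.57 in vessel 1 against 6.35 to 8.26 in the later vessels, a difference of -1.03 ± 0.26 (SE, adjusted p = 0.0103), whose call was lost without vessel 1 of 1% or of 2%, with the ACTB covariate, without concentration as a factor and against vessel 2 alone.

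Before the values, 5 promoters are shown, of genes from lists described below. KIF11, BUB1B and CCNA2 act in cell division and were higher with vessel 1 fluid, but are not among the 12 largest rises. The histone gene H2BC21 and the immediate-early gene FOS were lower. Each promoter is the 250 bases before the RefSeq start on GRCh38.p14 and is read along the gene's own strand. Capitals mark matches, on either strand, to the cell cycle homology region (CHR, TTTGAA or TTCGAA), the CCAAT box, the octamer ATTTGCAT, the TATA box TATAAA and the cyclic AMP response element core TGACGT.
KIF11, chr10:92592880-92593129, plus strand: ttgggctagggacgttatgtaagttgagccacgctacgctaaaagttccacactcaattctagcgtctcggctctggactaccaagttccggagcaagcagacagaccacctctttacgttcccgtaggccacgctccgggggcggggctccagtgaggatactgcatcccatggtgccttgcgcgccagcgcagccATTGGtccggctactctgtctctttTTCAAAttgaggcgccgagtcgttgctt
BUB1B, chr15:40160819-40161068, plus strand: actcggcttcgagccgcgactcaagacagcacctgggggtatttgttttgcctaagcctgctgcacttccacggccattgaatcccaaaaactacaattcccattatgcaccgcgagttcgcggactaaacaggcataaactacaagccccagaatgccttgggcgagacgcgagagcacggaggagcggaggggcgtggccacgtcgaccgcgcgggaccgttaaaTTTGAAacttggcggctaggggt
CCNA2, chr4:121823884-121824133, minus strand: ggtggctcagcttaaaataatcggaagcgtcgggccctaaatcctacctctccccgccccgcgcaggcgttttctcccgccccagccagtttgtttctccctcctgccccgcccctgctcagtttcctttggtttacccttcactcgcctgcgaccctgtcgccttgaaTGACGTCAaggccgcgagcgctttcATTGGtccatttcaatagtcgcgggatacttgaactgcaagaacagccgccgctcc
H2BC21, chr1:149886683-149886932, minus strand: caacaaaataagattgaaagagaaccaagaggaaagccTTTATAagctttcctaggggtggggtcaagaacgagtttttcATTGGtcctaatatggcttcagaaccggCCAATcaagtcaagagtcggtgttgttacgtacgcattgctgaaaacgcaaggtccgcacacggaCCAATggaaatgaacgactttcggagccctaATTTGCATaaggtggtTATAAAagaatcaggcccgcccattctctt
FOS, chr14:75278578-75278827, plus strand: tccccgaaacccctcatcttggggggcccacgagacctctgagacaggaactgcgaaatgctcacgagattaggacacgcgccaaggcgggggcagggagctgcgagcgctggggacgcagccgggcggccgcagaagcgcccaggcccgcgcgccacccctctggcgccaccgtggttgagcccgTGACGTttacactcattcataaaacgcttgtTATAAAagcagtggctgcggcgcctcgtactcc
KIF11 holds a CHR from -28 to -23 and a CCAAT box from -53 to -49, counted from the base before the start. BUB1B holds a CHR from -23 to -18. CCNA2 holds a CCAAT box from -56 to -52 and 2 overlapping matches to TGACGT, 1 on each strand, from -81 to -74. H2BC21 holds the octamer from -46 to -39, 3 CCAAT boxes and 2 TATA boxes, and FOS holds TGACGT from -64 to -59 and a TATA box from -33 to -28. These are matches of letters and not measured binding sites. The gene lists were chosen with earlier results of these data known. Of the 28 mitosis genes described next, 22 have a promoter in the RefSeq table. Among them 12 (54.5%) hold a CHR and 10 (45.5%) hold both a CHR and a CCAAT box, while CENPE and KIF2C hold neither. Among the 7340 promoters of tested genes these shares were 9.99% and 4.21%. Of the 10 histone genes tested, 5 hold the octamer, which is in 1.12% of promoters of tested genes. Of 9 immediate-early promoters, 3 hold TGACGT, which is in 11.1% of promoters of tested genes.

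Vessel 1 fluid left many small differences and few large ones. Of 8737 genes, 3433 passed (39.3%), of which 1917 were higher with vessel 1 fluid (21.9% of genes tested) and 1516 lower (17.4%). At an unadjusted p under 0.05 there were 4262. The median difference over all genes was 0.02 and the median size 0.20, and 203 of the called genes differed at least 2-fold, 98 higher and 105 lower. Of the called genes, 3205 had the same sign at all 3 concentrations. All 3 vessel 1 arrays lay above all 9 later arrays for 575 genes (6.58%) and below them for 454 (5.2%). The count was 2025 without vessel 1 of 1%, and 819 with the ACTB gap as a covariate, 787 of them among the 3433.

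The distance between arrays, taken as the mean size of the log2 difference over tested genes, showed where the vessel 1 arrays lie. At 0%, vessel 1 was 0.238 to 0.304 from the later vessels, which were 0.117 to 0.191 from each other. At 1%, vessel 1 was 0.358 to 0.392 from the later vessels, which were 0.137 to 0.158 from each other, and at 2% the ranges were 0.345 to 0.411 and 0.141 to 0.193. At each concentration vessel 1 was therefore farther from every later vessel than these were from one another. Vessel 1 of 2%, however, lay 0.120 to 0.197 from the later vessels of 0%, close to the range those arrays span among themselves. Between vessel 1 of 2% and the mean of the later vessels of 0%, only 5 genes differed at least 2-fold, with CADPS, CLDN2, HOXB8 and IL33 higher and OSER1-DT lower. Against the later vessels of its own 2% simulation the same array had 480 such genes, and vessel 1 of 0% had 140 against its own. Along the first principal component, which held 63.1% of the variance, the vessel 1 arrays ran from -30.5 to -18.8 and the later vessels from -13.6 to 30.9, with no overlap (exact permutation test, two-sided, p = 0.0156, the smallest possible).

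**Figure D1:**
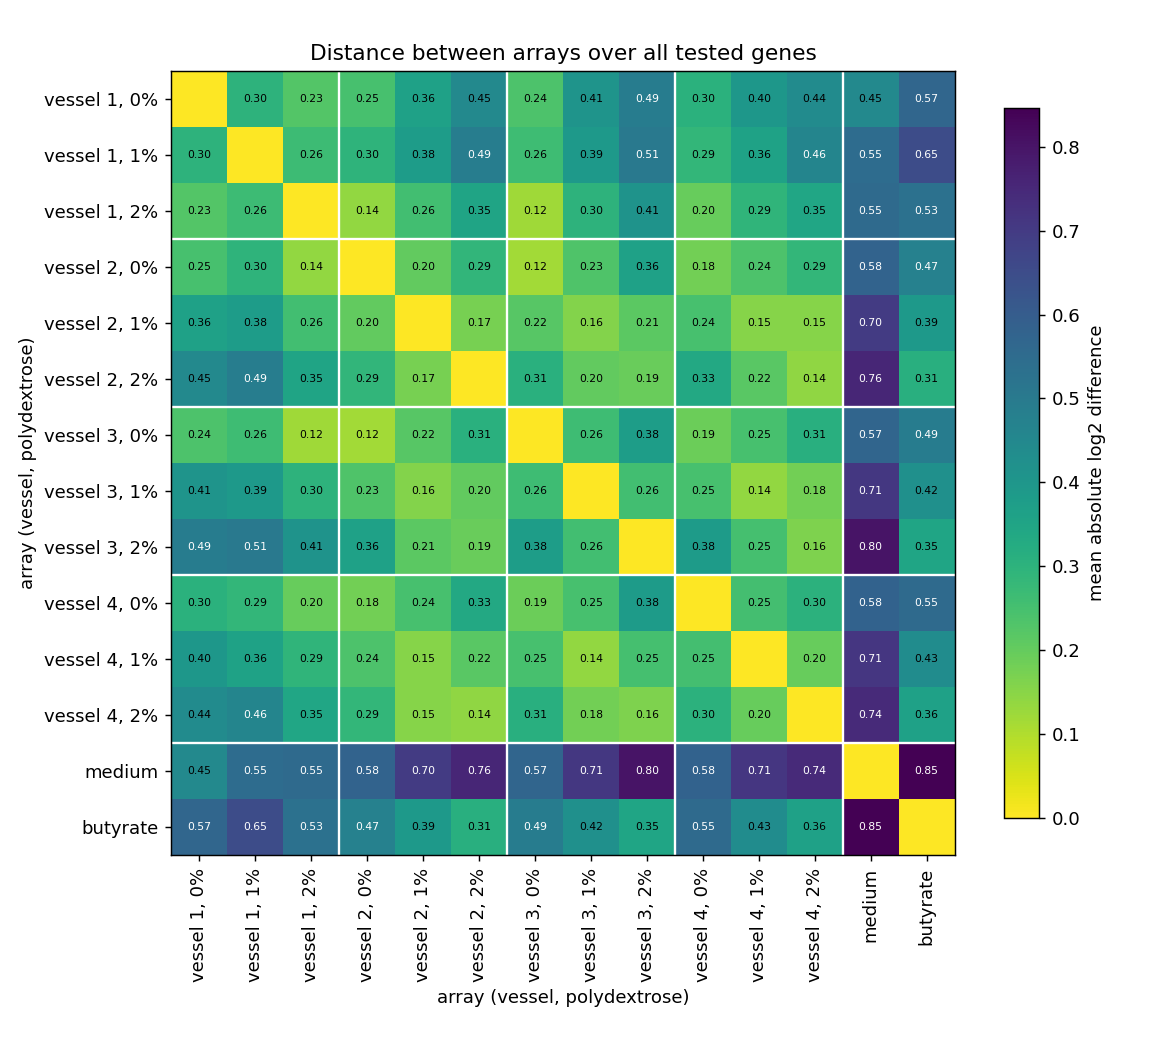
Mean absolute log2 difference over all tested genes for each pair of arrays, as a matrix whose rows and columns run from vessel 1 to vessel 4, each at 0%, 1% and 2% polydextrose, with medium and butyrate last; darker cells are larger distances. Vessel 1 of 2% lies 0.120 to 0.197 from the later vessels of 0%, but 0.345 to 0.411 from the later vessels of 2%.

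The genes of mitosis were higher with vessel 1 fluid as a whole list. This list, like the others, was chosen with earlier results of these data known, so its counts are no independent support. All 28 listed genes were tested and all 28 rose, by 0.50 to 1.59, with a median of 0.91 against 0.02 for all genes, of which 21.9% rose. The median was 0.59 at 0%, 1.00 at 1% and 1.18 at 2%, and each of the 28 was higher in vessel 1 than the mean of the later vessels at every concentration. With the ACTB gap as a covariate 25 of 28 passed, and 28 passed with each vessel 1 array left out in turn. In bulk RNA, fewer dividing cells and less transcript per dividing cell cannot be told apart.

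AURKA, the kinase that builds the spindle poles, had 9.93, 9.74 and 9.14 in vessel 1 at 0%, 1% and 2%, against 8.98 to 9.09, 7.95 to 8.08 and 6.89 to 7.54 in the later vessels. Its vessel 1 arrays all lay above all later arrays, and the difference was 1.496 ± 0.17 (SE, adjusted p = 0.000189). BORA, an activator of the AURKA and PLK1 kinases, had 7.99, 7.75 and 7.45 in vessel 1, against 7.08 to 7.56, 5.87 to 6.46 and 5.15 to 5.66. Vessel 1 was higher at each concentration, but its 2% array lay inside the later 0% range, and the difference was 1.43 ± 0.24 (adjusted p = 0.00108). BIRC5, the survivin subunit of the chromosomal passenger complex, had 9.21, 8.48 and 8.20 in vessel 1, against 7.97 to 8.29, 7.03 to 7.18 and 6.11 to 7.09. It overlapped in the same way and differed by 1.37 ± 0.18 (adjusted p = 0.000356).

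The motor proteins and checkpoint genes showed the same layout. KIF20A, a kinesin of the central spindle, had 8.62, 8.24 and 7.80 in vessel 1, against 7.63 to 7.91, 6.41 to 6.84 and 5.85 to 6.49 (difference 1.35 ± 0.17, adjusted p = 0.000333). CENPE, a kinesin at kinetochores, had 6.39, 6.03 and 4.95, against 4.99 to 5.19, 3.98 to 4.31 and 3.67 to 3.80 (1.48 ± 0.12, adjusted p = 3.49e-05). Its signal was under the limit of 5 in 7 of 9 later arrays, and the difference was 0.78 (adjusted p = 0.00536) with values under 5 set to 5. KIF11, which pushes spindle poles apart, had 9.96, 9.42 and 9.24, against 9.26 to 9.43, 8.33 to 8.50 and 7.93 to 8.15 (0.95 ± 0.10, adjusted p = 0.000108). BUB1B, a spindle checkpoint kinase, had 9.81, 9.52 and 9.11, against 9.04 to 9.23, 8.43 to 8.54 and 7.75 to 8.20 (0.96 ± 0.10, adjusted p = 0.00014). CCNA2, cyclin A2, had 9.57, 9.15 and 8.87, against 8.59 to 8.86, 7.74 to 8.04 and 7.50 to 7.66 (1.14 ± 0.11, adjusted p = 7.01e-05). In these genes the 2% array was the lowest of vessel 1, and in CCNA2 alone of the 5 it stayed above every later array. CDCA3, which helps cells to enter mitosis, had 8.51, 8.34 and 7.71 in vessel 1, against 7.59 to 7.66, 6.48 to 6.82 and 5.92 to 6.54 (1.35 ± 0.15, adjusted p = 0.000168), also with no overlap.

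The change with polydextrose itself is given as a description with no test. Between 0% and 2%, the median change of the mitosis genes was -0.54 in vessel 1 and -1.19 in the later vessels, and the median size of change over all genes tested was 0.168 and 0.211. In mean size over all genes, vessel 1 of 2% was 0.228 from vessel 1 of 0%, against 0.289, 0.377 and 0.302 for the same step in vessels 2, 3 and 4. Between 0% and 1% the order was the other way, with 0.298 in vessel 1 against 0.204, 0.262 and 0.251 in vessels 2, 3 and 4.

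DNA replication and repair genes were higher by less. Of 30 listed replication and nucleotide supply genes 28 were tested, 18 rose, none fell and 10 did not pass, with a median of 0.39. Among all genes tested 21.9% rose and 17.4% fell. Here the median was 0.56 at 0%, 0.36 at 1% and 0.18 at 2%, the opposite order to that of mitosis, with 1 vessel 1 array per concentration. The interaction with concentration, tested below, passed for 2 of 28 mitosis genes and 0 of 28 replication genes. With the ACTB gap as a covariate 8 passed. TYMS, thymidylate synthase, had 11.54, 11.06 and 10.68 in vessel 1, against 10.53 to 10.66, 9.93 to 10.01 and 9.41 to 9.74, with no overlap (1.03 ± 0.07, adjusted p = 1.29e-05). MCM3, a subunit of the replicative helicase, had 9.38, 8.996 and 8.54, against 8.34 to 8.65, 8.20 to 8.28 and 7.79 to 8.04, with its 2% array inside the later 0% range (0.76 ± 0.08, adjusted p = 0.000126). Of 11 homologous recombination and Fanconi genes tested, 8 rose and none fell (median 0.32), but 4 passed without vessel 1 of 0% and 4 with the covariate. BARD1, the partner of BRCA1, had 7.49, 7.52 and 6.93, against 6.89 to 6.98, 6.60 to 6.82 and 6.19 to 6.31 (0.69 ± 0.07, adjusted p = 8.93e-05).

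Ribosome biogenesis genes, which make and process ribosomal RNA, were also higher. Of 14 tested 12 rose and none fell (median 0.38), where 21.9% of all genes tested rose and 17.4% fell. The count was 7 without vessel 1 of 1% and 3 with the covariate. NCL, nucleolin, had 12.46, 12.35 and 12.19 in vessel 1, against 12.10 to 12.18, 11.88 to 11.92 and 11.82 to 11.91, with no overlap (0.36 ± 0.05, adjusted p = 0.000546). WDR43, a factor for early processing of the small subunit, had 8.38, 8.23 and 8.09, against 7.99 to 8.03, 7.54 to 7.60 and 7.15 to 7.42, likewise with no overlap (0.60 ± 0.08, adjusted p = 0.000402). MYC, a transcription factor for growth genes, had 11.07, 11.11 and 10.89, against 10.73 to 10.88, 10.38 to 10.57 and 9.92 to 10.10 (0.59 ± 0.10, adjusted p = 0.00154). Its lowest vessel 1 array was just above its highest later array.

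Of 10 tested Wnt and stem cell genes 9 rose and none fell, with a median of 0.53 that went through 0.20, 0.64 and 0.80 at 0%, 1% and 2%. Over all genes tested 21.9% rose and 17.4% fell. The count was 5 without vessel 1 of 1% or of 2%, and 4 with the covariate. ASCL2, a stem cell transcription factor of the crypt, had 8.17, 8.31 and 7.96 in vessel 1, against 7.47 to 7.64, 6.42 to 6.68 and 5.74 to 6.23. No arrays overlapped, and the difference was 1.45 ± 0.20 (adjusted p = 0.000443). LGR5, the R-spondin receptor that marks crypt stem cells, had 9.55, 8.21 and 8.68, against 8.45 to 8.87, 7.33 to 7.71 and 6.37 to 7.02. Its 1% and 2% arrays lay under the highest later array, and it differed by 1.20 ± 0.21 (adjusted p = 0.00143). CD44, a hyaluronan receptor, had 10.15, 9.69 and 9.71, against 9.50 to 9.61, 8.71 to 9.08 and 8.59 to 8.89 (0.77 ± 0.10, adjusted p = 0.00034).

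Several of the largest rises belonged to none of these lists. HMGA2, a chromatin protein of fetal and tumour cells, had 8.79, 8.50 and 8.17 in vessel 1, against 7.62 to 7.89, 6.44 to 6.51 and 5.26 to 5.42, with no overlap (1.96 ± 0.23, adjusted p = 0.000219). ALDH3A1, an aldehyde dehydrogenase, had 9.72, 9.90 and 9.01, against 8.63 to 9.10, 7.34 to 7.65 and 5.93 to 6.53, and only its 2% array lay within the later range (2.04 ± 0.28, adjusted p = 0.00043). CLDN2, a pore-forming claudin, had 6.55, 6.87 and 6.20, against 4.89 to 5.53, 3.81 to 4.25 and 3.07 to 3.99. Vessel 1 was above every later array, and the difference was 2.28 ± 0.26 (adjusted p = 0.000189). For CLDN2 8 of 9 later arrays were under the signal limit, and with values under 5 set to 5 the difference was 1.48 (adjusted p = 4.39e-05). Of the other 11 tight junction genes tested 1 rose and none fell, where 21.9% of all genes tested rose and 17.4% fell. SERPINH1, a collagen chaperone, had 6.58, 7.66 and 6.20, against 5.66 to 6.15, 4.03 to 4.48 and 3.39 to 3.72 (2.25 ± 0.36, adjusted p = 0.000905), and its call was lost with the covariate. As 6 of 9 later arrays were under 5, its difference was 1.52 (adjusted p = 0.00125) with such values set to 5.

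By the same rule TMEM52B, a membrane protein, differed by 1.56 ± 0.24 (adjusted p = 0.000714) and KCNE3, a potassium channel subunit of colon epithelium, by 1.34 ± 0.22 (adjusted p = 0.00116). STAT6, which relays interleukin-4 signals, had 8.65, 9.23 and 8.61 in vessel 1, against 7.94 to 8.32, 6.78 to 7.54 and 6.70 to 6.85, with no overlap (1.44 ± 0.24, adjusted p = 0.00112). KLK10, a secreted serine protease, differed by 1.43 ± 0.27 (adjusted p = 0.00227). With the covariate STAT6, KLK10 and KCNE3 did not pass.

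**Figure D2:**
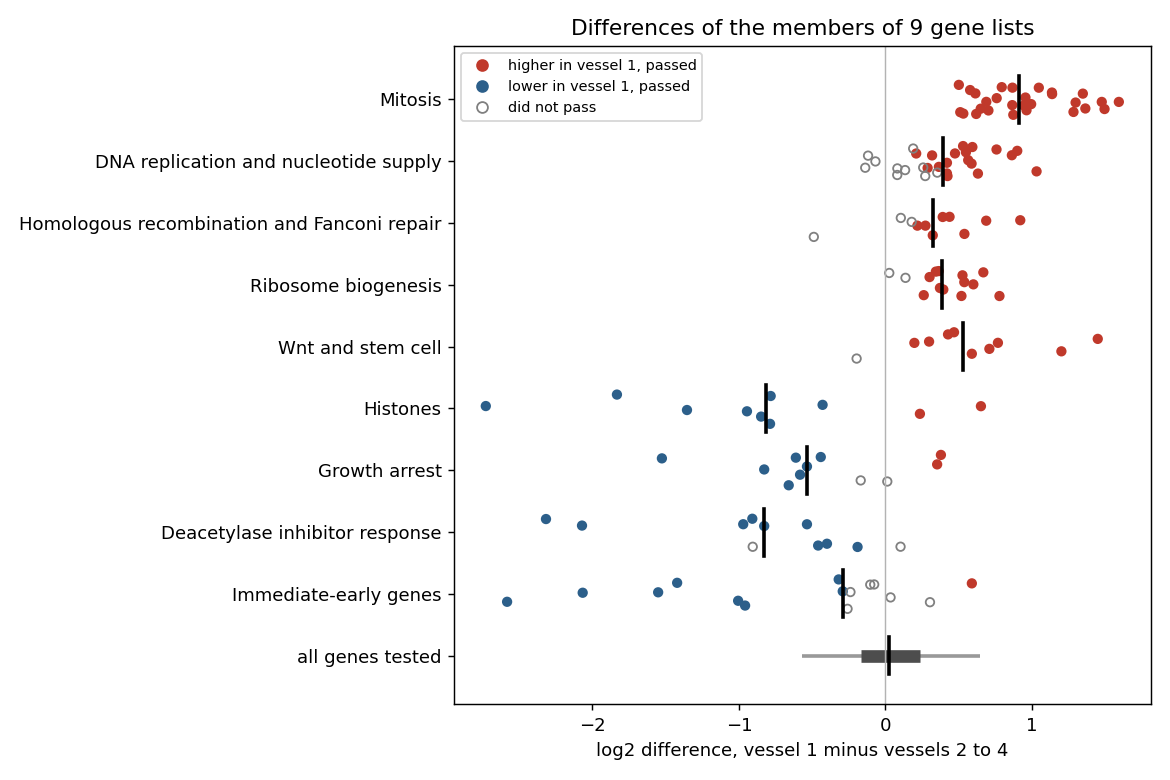
Difference of vessel 1 minus later vessels (log2) for every tested gene of the named lists, 1 point per gene, filled where it passed (red higher, blue lower in vessel 1) and open where it did not, with each list's median as a black tick. The last line gives all genes tested, from the 25th to the 75th percentile (-0.17 to 0.23) as a thick bar and from the 5th to the 95th (-0.57 to 0.64) as a thin one; the mitosis points lie from 0.50 to 1.59 and 8 of the 10 histone points lie below 0.

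Most histone genes were lower with vessel 1 fluid. Of 10 tested 8 fell and 2 rose, with a median of -0.82, where 17.4% of all genes tested fell and 21.9% rose. The members that fell include replication-type histone genes, whose transcripts normally lack a poly(A) tail. H2BC21 had 5.68, 6.82 and 7.32 in vessel 1, against 7.57 to 7.76, 8.57 to 8.67 and 8.78 to 9.16 in the later vessels. Every vessel 1 array was below every later array, and the difference was -1.83 ± 0.09 with the smallest adjusted p of all genes (3.41e-06). H4C8 had 5.74, 6.32 and 7.004, against 7.37 to 8.20, 9.21 to 9.57 and 9.88 to 10.05, also with no overlap (-2.73 ± 0.19, adjusted p = 1.18e-05). The linker histone gene H1-2 had 10.69, 11.29 and 11.24, against 11.41 to 11.67, 12.13 to 12.36 and 12.18 to 12.26 (-0.95 ± 0.07, adjusted p = 1.69e-05). H2BC4 and H2AC6 differed by -1.35 ± 0.09 (adjusted p = 1.18e-05) and -0.85 ± 0.09 (adjusted p = 0.000105). The variants H2AX, which marks DNA breaks, and H2AZ1 rose by 0.65 ± 0.08 (adjusted p = 0.000356) and 0.24 ± 0.06 (adjusted p = 0.00874). Histone genes are near-identical copies, so a probe set may read several of them and the single names are uncertain.

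Genes of growth arrest were mostly lower with vessel 1 fluid. Of 11 tested 7 fell and 2 rose, with a median of -0.54, or -0.44 with 1 gene under the signal limit in vessel 1 set at its bound. Over all genes tested 17.4% fell and 21.9% rose. CDKN1C, the cyclin-dependent kinase inhibitor p57, had 8.27, 8.55 and 8.76 in vessel 1, against 9.08 to 9.19, 10.04 to 10.26 and 10.73 to 11.01. It did not overlap and differed by -1.53 ± 0.17 (adjusted p = 0.00016). CDKN1A, the inhibitor p21, had 9.84, 10.49 and 10.11, against 10.30 to 10.37, 10.71 to 10.98 and 10.80 to 11.03 (-0.54 ± 0.09, adjusted p = 0.00121), with its 1% array above the later 0% range. GADD45B, a stress-induced growth arrest gene, had 9.07, 9.39 and 9.37, against 9.65 to 9.78, 10.13 to 10.22 and 10.40 to 10.51 (-0.83 ± 0.08, adjusted p = 7.01e-05). The members that rose were CCND1, cyclin D1, which drives the cycle forward (0.35 ± 0.10, adjusted p = 0.0202), and CDKN1B, the inhibitor p27 (0.38 ± 0.13, adjusted p = 0.0424). CCND1 did not pass with the covariate or without vessel 1 of 1%. CDKN1B did not pass without any one of 10 arrays, each left out in turn, with adjusted p from 0.0522 to 0.321.

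Genes that deacetylase inhibitors are known to raise were lower with vessel 1 fluid. Of 11 tested 9 fell and none rose, with a median of -0.83, or -0.79 with the bounded gene at its bound. Among all genes tested 17.4% fell and 21.9% rose. With the covariate 5 passed. CDKN1A and GADD45B are members of this list as well as of the growth arrest list. KLF4, given with the immediate-early genes below, is a member too, so the counts of these lists are not separate. CCN2, a matrix-associated growth factor, had 9.49, 8.93 and 9.28 in vessel 1, against 9.82 to 10.50, 11.90 to 11.91 and 12.50 to 12.87, with no overlap (-2.32 ± 0.40, adjusted p = 0.00135, not passed with the covariate). DHRS2, a dehydrogenase, had 3.68, 3.45 and 4.01, against 3.82 to 4.60, 5.60 to 6.24 and 6.85 to 7.66. As all vessel 1 arrays were under the limit of 5, it was at least 1.72-fold lower. Its adjusted p was 0.00267 on the values as deposited (not passed with the covariate) and 0.0197 with values under 5 set to 5. At 0% its later arrays were under 5 too. TXNIP, an inhibitor of thioredoxin, had 5.35, 8.02 and 9.71, against 8.37 to 9.35, 7.80 to 8.89 and 7.96 to 9.06, and did not pass (-0.91 ± 0.67, adjusted p = 0.305). MAP1LC3B, an autophagosome protein, had 10.91, 11.43 and 11.45, against 11.69 to 11.93, 12.21 to 12.41 and 12.32 to 12.43 (-0.91 ± 0.07, adjusted p = 1.56e-05).

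Of 15 immediate-early genes tested 8 fell and 1, MYC, rose, with a median of -0.29, where 17.4% of all genes tested fell and 21.9% rose. With the covariate 5 fell. FOS, a subunit of the AP-1 factor, had 5.18, 5.85 and 6.30 in vessel 1, against 7.05 to 7.35, 8.49 to 8.71 and 9.05 to 9.57. All vessel 1 arrays were lower than all later arrays, and the difference was among the largest falls (-2.58 ± 0.16, adjusted p = 6.25e-06). EGR3, an early growth response factor, had 6.84, 7.27 and 7.28, against 7.57 to 7.96, 9.26 to 9.56 and 10.02 to 10.71 (-2.07 ± 0.30, adjusted p = 0.000568), also with no overlap. DUSP1, a phosphatase of MAP kinases, had 8.57, 9.51 and 8.99, against 9.27 to 10.01, 10.50 to 10.79 and 10.86 to 11.21 (-1.42 ± 0.19, adjusted p = 0.000402). KLF4, a factor of differentiating epithelium, fell by less (-0.46 ± 0.06, adjusted p = 0.000273).

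The other large falls were MAF, a transcription factor (-1.80 ± 0.12, adjusted p = 1.02e-05), SPRR1A, an envelope protein of squamous epithelium (-1.72 ± 0.09, adjusted p = 4.62e-06), AMN1 (-1.79 ± 0.10, adjusted p = 4.62e-06), RUNDC3B (-2.13 ± 0.20, adjusted p = 7.01e-05) and ARL14, a small GTPase (-1.72 ± 0.21, adjusted p = 0.00025). In each of these 5 genes all 3 vessel 1 arrays were below all later arrays. Genes under the signal limit in all 3 vessel 1 arrays had only a bound. HEY1, a Notch target, had 3.81, 4.12 and 4.35 in vessel 1, against 5.08 to 5.32, 6.56 to 7.15 and 6.97 to 7.45, and was at least 2.69-fold lower. Its adjusted p was 0.000105 on the values as deposited and 0.00294 with values under 5 set to 5. DNER, a Notch ligand, had 3.69, 2.98 and 4.48, against 4.03 to 4.94, 6.31 to 6.99 and 7.42 to 8.06, and was at least 2.41-fold lower. Its adjusted p was 0.00124 on the values as deposited (not passed with the covariate) and 0.00926 with values under 5 set to 5. At 0% its later arrays were under 5 too. ZCCHC12, KLHL29, TENT5B and PMS2P5 were at least 2.46-fold, 2.44-fold, 2.30-fold and 1.88-fold lower, and PMS2P5, which did not pass with the covariate, is a pseudogene that may share probes with related copies. Of 10 Notch pathway genes tested 4 fell, 2 rose and 4 did not pass. The shares over all genes tested were 17.4% fallen and 21.9% risen.

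**Figure D3:**
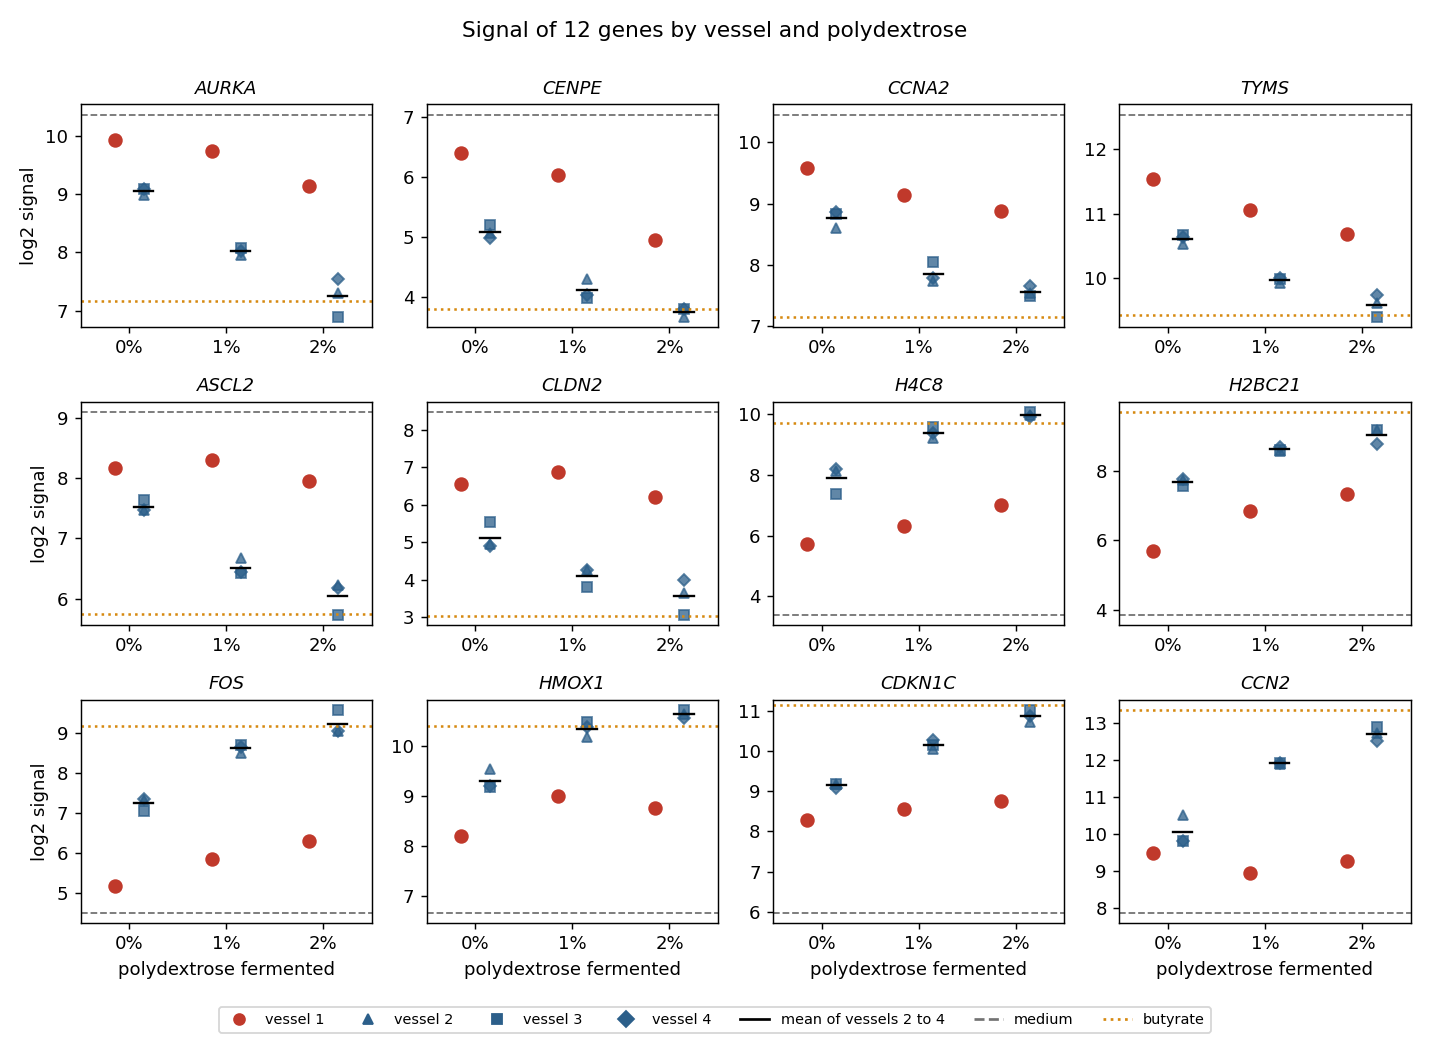
Log2 signal of 12 named genes in each fermentation array, by polydextrose (%), with vessel 1 in red to the left of vessels 2 to 4 in blue and a black tick at the mean of those 3; the dashed line is the single medium array and the dotted line the single butyrate array. AURKA, TYMS and CLDN2 lie higher and FOS, H2BC21 and H4C8 lie lower in vessel 1 at every concentration.

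The vessel 1 array of 0% stood apart in a group of stress genes. DDIT3, a factor of the unfolded protein response, had 7.54 in vessel 1 of 0%, but 11.14 and 10.27 in vessel 1 of 1% and 2%, against 10.49 to 11.30, 11.40 to 11.86 and 11.45 to 11.77 in the later vessels (-1.73 ± 0.38, adjusted p = 0.00483). ATF3, another stress factor, had 8.56, 11.01 and 10.05, against 10.32 to 11.26, 11.47 to 11.84 and 11.59 to 12.01 (-1.55 ± 0.25, adjusted p = 0.000991). SESN2, a stress sensor, had 5.89, 8.44 and 7.005, against 7.44 to 8.31, 8.45 to 8.76 and 8.38 to 9.04 (-1.27 ± 0.29, adjusted p = 0.00602), and it did not pass without vessel 1 of 2%. CHAC1, which degrades glutathione, had 7.56, 10.07 and 9.25, against 9.45 to 9.84, 10.07 to 10.44 and 10.13 to 10.26 (-1.07 ± 0.25, adjusted p = 0.00659). In all 4 genes the 0% array was the lowest of the 12. Of 18 genes of the ATF4 amino acid response tested 6 fell and none rose, and the list's median was -0.51 at 0%, 0.13 at 1% and -0.14 at 2%. Hypoxia genes had medians of -0.77, -0.08 and 0.08, with 2 of 14 lower and none higher, and glycolysis genes -0.20, 0.04 and 0.09, with 5 of 21 lower. Among all genes tested 17.4% were lower with vessel 1 fluid and 21.9% higher.

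Chaperone genes were higher in part, where 21.9% of all genes tested were higher and 17.4% lower. Of 11 heat shock genes tested 6 rose and 1, DNAJB1, fell, and 2 rose with the covariate. HSPH1, a nucleotide exchange factor of HSP70, had 10.60, 9.74 and 9.75 in vessel 1, against 9.52 to 9.66, 9.08 to 9.13 and 8.85 to 9.02, with no overlap (0.83 ± 0.07, adjusted p = 5.26e-05). Of 18 endoplasmic reticulum chaperones 7 rose and none fell, but this count was 13 without vessel 1 of 0%, 2 without vessel 1 of 1%, 3 without vessel 1 of 2% and 0 with the covariate.

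Some epithelial cytokine, growth factor and chemokine genes gave differences that varied with concentration. Of 10 epithelial cytokine and receptor genes tested 3 rose, 2 fell and 5 did not pass, with a median of 0.09. The dependence on concentration, tested below, passed for 1 of these 10, 2 of 7 EGF family genes and 2 of 8 chemokines, all positive. Over all genes tested it passed for 2.06% as positive and 1.02% as negative. None of these calls held without vessel 1 of 0%. IL33, an alarmin of barrier cells, had 8.72, 8.48 and 9.18 in vessel 1, against 7.77 to 8.44, 5.26 to 6.57 and 3.23 to 4.65 in the later vessels. Vessel 1 stayed high while the later vessels were lower at each higher concentration (2.74 ± 0.63, adjusted p = 0.00625, not passed with the covariate). IL20RA, a receptor chain for interleukin-20 cytokines, had 7.09, 7.50 and 7.38, against 6.69 to 6.92, 4.99 to 5.15 and 3.99 to 4.28 (2.01 ± 0.38, adjusted p = 0.00218, likewise not passed). BTC, betacellulin, a ligand of the EGF receptor, had 5.94, 5.99 and 6.16, against 5.56 to 5.67, 3.29 to 4.15 and 2.71 to 3.53 (1.87 ± 0.38, adjusted p = 0.0034, likewise not passed). BTC was under 5 in 6 of 9 later arrays, and with such values set to 5 the difference was 0.82 (adjusted p = 0.00049). With IL33 under 5 in 3 later arrays and IL20RA in 4, theirs were 2.42 (adjusted p = 0.00282) and 1.71 (adjusted p = 0.00139) in the same way. Of 7 EGF family genes tested 4 rose and none fell, where 21.9% of all genes tested rose and 17.4% fell. Of 8 chemokines tested 2 rose and 1 fell, and the list's median was -1.08 at 0% and 0.99 and 0.98 at 1% and 2%. CCL20, which draws CCR6-bearing cells, had 11.10, 11.87 and 11.83, against 12.08 to 12.39, 12.53 to 12.68 and 12.62 to 12.65, with no overlap (-0.91 ± 0.09, adjusted p = 8.97e-05). CXCL5, a neutrophil chemokine, rose by 0.90 ± 0.22 (adjusted p = 0.00934) and did not pass with the covariate, or without vessel 1 of 1% or of 2%. Of 9 prostaglandin pathway genes tested 1 rose and 3 fell, and the largest fall was in PTGS1, the constitutive cyclooxygenase (-1.20 ± 0.19, adjusted p = 0.000939, not passed with the covariate).

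The dependence on concentration was tested as an interaction, the change of the vessel 1 difference per percentage point of polydextrose. It passed for 269 genes, 180 positive (2.06%) and 89 negative (1.02%), and 1872 had an unadjusted p under 0.05. Of the 269, 153 had also passed the main comparison. The count rests on single arrays. Without vessel 1 of 0% it was 1, a gene outside the 269, and without vessel 1 of 1% it was 513. Leaving out vessel 2 or vessel 3 of 0% gave 119 and 46, vessel 3 or vessel 4 of 1% gave 169 and 119, and vessel 3 of 2% gave 126.

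HMGA2 had the smallest adjusted p of the positive genes, with 0.91 ± 0.08 per percentage point (SE, adjusted p = 0.00457). It was followed by IL20RA with 1.48 ± 0.15 (adjusted p = 0.00677), SLC6A20, a proline transporter, with 1.01 ± 0.11 (adjusted p = 0.00771), and PRSS33, a serine protease, with 1.21 ± 0.14 (adjusted p = 0.00771). In SLC6A20 vessel 1 had 6.92, 7.06 and 7.14, against 6.71 to 6.94, 5.50 to 5.62 and 4.94 to 5.18, so the later vessels carried the change. PTGS2, the inducible cyclooxygenase, crossed over. It had 5.22, 7.54 and 6.89 in vessel 1, against 7.30 to 8.03, 5.62 to 6.32 and 4.53 to 5.55, lower than the later vessels at 0% and higher at 1% and 2% (2.05 ± 0.42, adjusted p = 0.0351). Its overall difference was 0.29 ± 0.60 (adjusted p = 0.725). The interaction of PTGS2 ran from 0.31 to 3.79 with 1 array left out, was 0.31 (adjusted p = 0.863) without vessel 1 of 0%, and lost its call without any one of 7 arrays. CXCL3, a neutrophil chemokine, had 7.82, 10.37 and 9.35, against 8.69 to 9.62, 7.01 to 7.93 and 6.52 to 7.08, the same crossing, but its interaction did not pass (1.89 ± 0.49, adjusted p = 0.0649).

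Among the negative genes, IL27RA, an interleukin-27 receptor chain, had 6.31, 5.76 and 4.88 in vessel 1, against 4.97 to 5.15, 5.02 to 5.15 and 5.04 to 5.31 (-0.78 ± 0.09 per percentage point, adjusted p = 0.0105). Here vessel 1 changed and the later vessels were level. In NOCT, a circadian phosphatase, vessel 1 was level at 5.60, 5.69 and 5.54, against 6.03 to 6.25, 6.67 to 6.70 and 7.15 to 7.28 (-0.57 ± 0.07, adjusted p = 0.0139). CDKN1C and EGR3, described above, had -0.61 ± 0.09 (adjusted p = 0.0154) and -1.10 ± 0.17 (adjusted p = 0.018). These 4 interactions also lost their calls without vessel 1 of 2% (adjusted p = 0.0876, 0.0936, 0.0583 and 0.0908, in the order given).

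**Figure D4:**
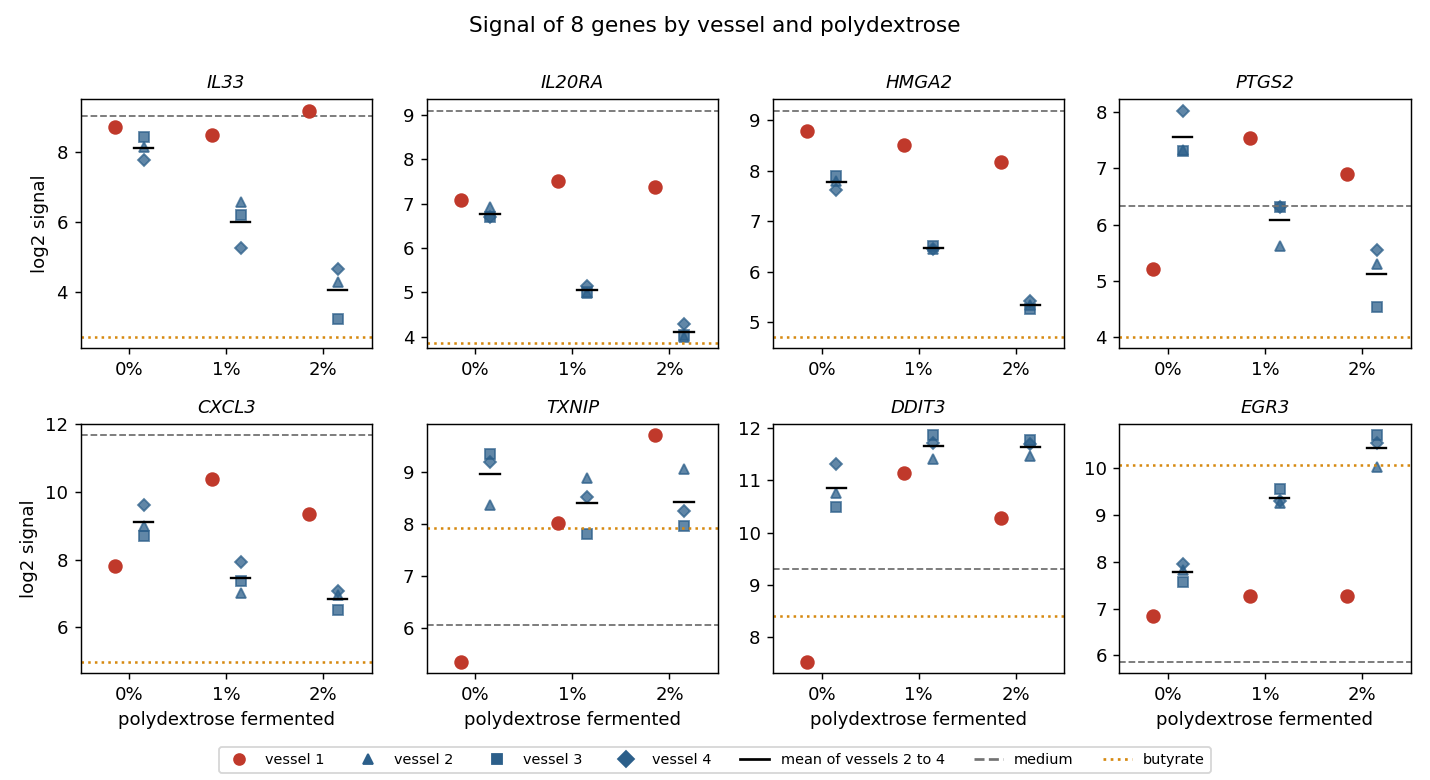
Log2 signal of 8 genes by polydextrose (%), vessel 1 in red to the left of vessels 2 to 4 in blue, with the medium (dashed) and butyrate (dotted) arrays as lines. IL33 and IL20RA stay high in vessel 1 while the later vessels are lower at each higher concentration; PTGS2 and CXCL3 cross, and CXCL3 and DDIT3 did not pass the interaction test.

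Among the later vessels no gene passed for a change along the colon. A linear trend over vessels 2, 3 and 4 passed for 0 genes (0%) in limma, with 915 at an unadjusted p under 0.05 and a smallest adjusted p of 0.309. With a robust prior the count was also 0.

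The single medium, butyrate and NaCl arrays give the scale of these lists and allow no test. Relative to medium, the median of the mitosis genes was -0.58 in vessel 1 and -1.53 in the later vessels, and -2.22 in butyrate. Histone genes were at 1.55 in vessel 1, 2.41 in the later vessels and 2.58 in butyrate. Genes of the deacetylase inhibitor list were at 0.86, 1.68 and 1.87, in the same order of arrays. Over all genes tested these medians were 0.04, 0.03 and 0.02. Thus in each of these 3 lists vessel 1 lay on the same side of medium as the later vessels, and nearer to medium. Replication, repair and ribosome biogenesis lists had that layout too, at -1.11, -0.94 and -0.80 in vessel 1 and -1.70, -1.39 and -1.19 later. Growth arrest and immediate-early lists were at 0.60 and 0.39 in vessel 1 and 1.17 and 1.16 later, but at 0.84 and 0.63 in butyrate. The Wnt and stem cell list lay across medium, at 0.04 in vessel 1 and -0.40 later, and the ATF4 list at -0.18 and 0.03. The single NaCl array was at -0.58 for mitosis, 1.54 for histones and -0.04 for the deacetylase inhibitor list. Its median over all genes tested was 0.01. In the medians of the mitosis and histone lists NaCl therefore lay about where vessel 1 did, and in that of the deacetylase inhibitor list it did not. By gene this did not always hold, as KIF20A was at 9.56 in NaCl, 8.84 in medium and a mean of 8.22 in vessel 1. FOS was at 4.50 in medium and 9.18 in butyrate, and H2BC21 at 3.86 and 9.67. Vessel 1 arrays were 0.448 to 0.553 from medium and 0.529 to 0.648 from butyrate in mean log2 difference, and the later vessels were 0.570 to 0.800 from medium and 0.313 to 0.552 from butyrate. All these values rest on the single medium, butyrate and NaCl arrays.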

How the data were processed

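RNA of Caco-2 cells was measured on 15 one-colour Affymetrix arrays with 54675 probe sets. Values are log2 signals deposited by the authors as one table, made with GCRMA per the submitters' processing notes (version not given in the sources used here); GCRMA subtracts a sequence-dependent background, so signals under log2 5 were treated as near background. Gene symbols came from the platform annotation: 41097 probe sets had 1 symbol, 1801 several and 11777 none, and only the first kind was used. Each gene was read from its brightest probe set, by the mean of all 15 arrays. The model, run in R 4.3.3 with limma 3.58.1 (lmFit and eBayes), set vessel 1 against vessels 2 to 4, with concentration as a factor. The labels list 1 simulation per concentration, so concentration is also the replicate number and the block. p-values were adjusted by Benjamini-Hochberg over 8737 genes. Interaction and trend models used the same genes.

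Genes were named by a rule: the 12 largest rises and 12 largest falls that passed with 1 sign at all 3 concentrations and a signal of at least log2 5 on all 12 arrays; the 6 largest falls known only as bounds (no rise was of that kind); from every list at most 5 genes, taken by p; the 8 strongest interactions each way; and PTGS2, CXCL1, CXCL3, CXCL8, IL33, MYC, CDKN1A, CPT1A, HMOX1, DNER and DHRS2. H2AX, H2AZ1, CCND1, CDKN1B, TXNIP, DNAJB1, CADPS, HOXB8 and OSER1-DT were named after their values were seen. Members and lists were chosen with earlier results of these data known. A bound sets a gene's vessel 1 signal at log2 5. Promoters are RefSeq's on GRCh38.p14. The fits were tested on simulated data. Alternatives changed the filter, probe choice, normalization, prior, weights, block and covariate, and left out 1 array each. Some genes are not reported here.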

Additional observations from a re-analysis of the deposited data

Results flagged for a closer look

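The ACTB 3' to 5' gap of vessel 3 of 1% was 0.366 log2 units, apart from the other 8 arrays of the later vessels, and a rare gap of this kind turns up by chance in some groups of this size.

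For 22 named genes the difference between vessel 1 and the later vessels changed with polydextrose, by the interaction test. The changes per percentage point were positive for TXNIP (2.46), IL33 (2.26), PTGS2 (2.05), IL20RA (1.48), BTC (1.36), PRSS33 (1.21), SLC6A20 (1.01), ALDH3A1 (0.96), HMGA2 (0.91), TMEM52B (0.84), CXCL5 (0.82), KCNE3 (0.76), PSMB8 (0.74), EREG (0.71) and CDKN1B (0.44). They were negative for CCN2 (-1.43), DHRS2 (-1.41), EGR3 (-1.10), IL27RA (-0.78), CDKN1C (-0.61), NOCT (-0.57) and KLF2 (-0.46). In TXNIP the vessel 1 array of 0% (5.35) was the lowest of the 12 and the vessel 1 array of 2% (9.71) the highest. None of the 269 genes with an interaction passed again without vessel 1 of 0%, where 1 simulation gives the 0% difference. In the later vessels BTC was under log2 5 on 6 of 9 arrays, IL20RA on 4, and IL33, PRSS33 and DHRS2 on 3, so the sizes given for these 5 genes are uncertain.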

How the results depend on the processing

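Between vessel 1 and the later vessels 3433 genes were called. Run again over all genes, the count was 1682 with no replicate block, 723 against vessel 2 alone, 819 with the ACTB gap as a covariate and 47 for differences tested against a 1.5-fold minimum. It ran from 2025 to 3863 with 1 array left out, and from 2659 to 3553 under the other filters, probe choices, normalizations, priors, weights and vessel coding. For the interaction, called in 269 genes, the count was 128 with no filter for low signal (111 of them among the 269), 460 with an intensity trend and robust prior (238 among them), and 1 to 513 with 1 array left out. With values under log2 5 set to 5, chosen after seeing the data, the counts were 3393 and 274. Vessel 2 alone has fewer arrays; for the other settings the cause was not tested. Against vessel 2 alone 25 of 28 mitosis genes passed, without the block 11, and with the 1.5-fold minimum 4. Against vessel 2 alone 7 of 10 histone genes fell, and 10 of 28 replication genes rose. There 4 of 11 repair, 3 of 14 ribosome biogenesis and 2 of 10 Wnt and stem cell genes rose. Of 18 endoplasmic reticulum chaperones 0 rose, and of 18 ATF4 genes 1 fell. With the 1.5-fold minimum 4 of 10 histone genes fell, and the repair, ribosome biogenesis and Wnt lists kept 0. Over 2929 values of named genes under the alternatives, 2707 kept direction and side of the threshold, 195 no longer passed, 17 newly passed and 10 reversed. The reversed differences are of genes not called: CPT1A (0.073 with the covariate, and -0.40 to 0.013 with 1 array left out), PTGS2 (-0.18 with the covariate, and -0.44 to 1.61), CXCL1 (-0.11 with the covariate, and -0.077 to 0.95) and TXNIP (-2.00 to 0.45). The interaction ran from -0.24 to 2.05 for CXCL1 and from -0.42 to 4.21 for CXCL3 with 1 array left out, and was negative without vessel 1 of 0%. Genes with arrays under log2 5 have uncertain sizes of change.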

Other observations

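Further gene groups gave small or mixed differences. Over all genes tested 21.9% rose and 17.4% fell. Of 12 amino acid transporters tested 6 rose and 1 fell, with SLC7A7, a basic amino acid carrier, at 8.88, 8.66 and 8.34 in vessel 1, against 8.22 to 8.50, 6.93 to 7.71 and 6.09 to 6.77 in the later vessels (1.22 ± 0.24, SE, adjusted p = 0.00254 in limma, not passed with the ACTB gap as a covariate). Of 16 apoptosis genes 4 rose and 5 fell. Among them BID, a BH3 protein of the mitochondrial pathway, differed by 0.92 ± 0.16 (adjusted p = 0.00129, likewise not passed) and BIK, another, by -0.66 ± 0.08 (adjusted p = 0.000203). Of 22 oxidative phosphorylation genes 3 rose and none fell, with a median of 0.02, the median of all genes.

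HMOX1, heme oxygenase, had 8.19, 8.99 and 8.75 in vessel 1, against 9.17 to 9.53, 10.18 to 10.47 and 10.56 to 10.71 (-1.45 ± 0.13, adjusted p = 6.13e-05), with no overlap, while of 16 NRF2 genes tested 2 rose and 3 fell. The clock gene BMAL1 had 6.96, 7.62 and 7.67, against 7.74 to 8.39, 8.74 to 9.31 and 8.96 to 9.19 (-1.30 ± 0.15, adjusted p = 0.000203). PSMB8, an immunoproteasome subunit, had 7.52, 7.83 and 7.32, against 6.78 to 6.96, 5.87 to 6.59 and 4.95 to 5.36, with no overlap (1.46 ± 0.23, adjusted p = 0.000776), and of 12 interferon response genes tested 3 rose and 4 fell.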
